A study of Mus musculus with 8 samples.

Results

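The solute carriers are the largest superfamily of membrane transporters, and 173 of their genes were read out here from the transcriptome of mouse macrophages. They were chosen by 2 criteria: a symbol that starts with Slc and a digit, which 375 of the 41444 genes in the table have, and a mean expression of at least 4 on the log2-like scale of the table, which 188 of the 375 reached. A further 15 genes were left out by name, among them Slc2a1, Slc7a5, Slc7a11, Slc40a1 and Slc11a1. The 173 belong to 41 families by symbol. For 4 of them the product carries nothing across a membrane, such as Slc9a3r1, a scaffold of membrane proteins; the other 169 were sorted into 14 substrate classes by family. The mean used for the choice runs over both groups and not over their difference. Just inside the limit were Slc16a12, with a mean of 4.10, and Slc27a1, with 4.19, and just outside were Slc27a6, with 3.92, and Slc25a29, with 3.74. Slc16a12 was the 1 gene chosen with a group mean below the limit, 3.91 in vehicle and 4.29 with SLIT2. The other 187 symbols lay below it, and 94 of those had the same value in all 8 libraries.

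The libraries came from wild-type C57BL/6 mouse bone marrow, cultured into macrophages with the growth factor M-CSF. SLIT2 is a secreted ligand of the ROBO receptors, first known from axon guidance. In 4 libraries the macrophages had received 6 nM SLIT2 for 16 hours, and the other 4 were vehicle controls; every library shares strain, genotype and culture. Age, sex, and whether the 4 replicates of a group came from separate animals or dishes are not given in the labels, so the p-values reflect only how these libraries vary, and that variation may be technical.

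Each solute carrier family shares a fold and, mostly, a kind of substrate: some bring nutrients in along a sodium or proton gradient, some exchange a solute for another, and others work in the membranes of lysosomes, the Golgi or mitochondria. In macrophages they set the supply of zinc, copper and iron, empty the lysosome of digested amino acids, nucleosides and heme, and feed mitochondria and the lactate and glutamine traffic of activated cells.

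RefSeq promoters (GRCm38.p6, the 250 bases upstream of the first listed start) were at hand for 131 of the 173 genes, and 20 of the 131 (15.3%) held the palindrome CACGTG, the canonical E-box that basic helix-loop-helix factors such as MITF, TFEB and MYC can bind. The share was 8.84% over the 8696 tested genes with a promoter and 6.05% over all 27025 promoters. Of the members that passed the test of SLIT2 against vehicle below, 4 of 17 higher ones (23.5%) and 2 of 7 lower ones (28.6%) held it, so the letters occurred in both directions. The stretches around these matches are shown because they are the promoters of members that moved in both directions and carry the same 6 letters. They are written 5′ to 3′ on the strand of the gene, with CACGTG in capitals and up to 30 bases on each side.
Slc12a9, higher, chr5:137333653-137333718, minus strand: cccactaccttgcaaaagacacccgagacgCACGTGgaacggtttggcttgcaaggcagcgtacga
Slc16a1, higher, chr3:104638434-104638499, plus strand: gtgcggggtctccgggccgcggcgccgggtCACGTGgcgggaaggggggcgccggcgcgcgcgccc
Slc20a1, higher, chr2:129198568-129198633, plus strand: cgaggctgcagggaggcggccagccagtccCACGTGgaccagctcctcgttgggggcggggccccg
Slc20a1, higher, chr2:129198721-129198772, plus strand: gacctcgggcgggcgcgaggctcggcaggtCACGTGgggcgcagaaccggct
Slc25a1, higher, chr16:17928423-17928469, minus strand: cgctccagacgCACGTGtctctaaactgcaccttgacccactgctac
Slc22a4, lower, chr11:54028297-54028354, minus strand: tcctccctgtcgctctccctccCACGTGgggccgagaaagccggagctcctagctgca
Slc25a13, lower, chr6:6217263-6217328, minus strand: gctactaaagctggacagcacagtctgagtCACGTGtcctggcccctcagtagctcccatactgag
The match started 22 to 239 bases before the listed start, and Slc20a1 held a match at 175 and another at 22 bases. On both strands, the zinc-responsive core TGCACNC was in 14.5% of the members with a promoter (10.1% of tested genes), its variant TGCGCNC in 17.6% (22.3%), and the STAT core TTCNNNGAA in 5.34% (5.92%). None of the 7 matches of CACGTG overlapped a match of the other motifs. A match describes letters and is not a binding site.

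Every value below is the authors' regularised logarithm (rlog) of a gene's count, a log2 scale on which weakly expressed genes are pulled toward their mean, so that differences of weak genes are understated. Differences are SLIT2 minus vehicle on that scale, and a fold is 2 to the power of the difference. Macrophage identity was checked first: all 8 macrophage markers were tested, with means from 11.96 to 18.76, and their summed level spanned 19.07 to 19.58 in vehicle and 19.11 to 19.62 with SLIT2. Single markers moved: Mrc1 rose by 1.18 (limma adjusted p = 0.00125) and Fcgr1 by 1.165 (0.0016), Cd68 fell by 0.245 (0.0183), and Itgam differed by 0.735 (0.169, block 0.000629). None of the 7 lymphocyte markers and 2 of the 8 neutrophil markers reached the mean of 4, Ly6g and Ncr1 being at 0. The summed neutrophil level spanned 8.08 to 9.39 in vehicle and 8.66 to 10.0 with SLIT2, the mast and dendritic cell level 6.02 to 6.50 against 5.84 to 6.10, and the stromal level 9.10 to 9.75 against 9.31 to 9.92. Of the 5 stromal markers tested, Col3a1 rose by 0.665 (limma adjusted p = 0.0422). Of the 2 neutrophil markers tested, Mmp8 differed by 0.69 (limma adjusted p = 0.404, block 0.000515) and S100a8 by -0.155 (0.413). Kit, a mast cell marker, differed by -0.505 (limma adjusted p = 0.0869, block 0.0382). The erythroid and megakaryocyte level, carried by Pf4 and Ppbp with Hbb-bs at 0, spanned 9.06 to 10.53 against 9.96 to 12.31, and both passed as higher with the block described below, not without it. The part of these levels in the results below was not tested. In bulk RNA, fewer cells of a type and less RNA per cell cannot be told apart.

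Replicates 1 and 2 stood apart from replicates 3 and 4 in both groups. Over the 173 genes, this split into replicate sets took 49.9% of the sum of squares, the treatment took 31.8%, their interaction 3.70% and the difference within sets 14.6%. Over all 11851 genes tested the shares were 46.7%, 37.3%, 5.29% and 10.7%. Deviations from the group means correlated across genes between libraries of the same number (0.587 to 0.753), so a fit with the replicate number as a block is given beside each result whose call it changes. The shared part was the set, and same-numbered libraries within a set are not shown to be pairs.

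Solute carriers changed in both directions with SLIT2, and their median difference was near 0. With limma's moderated test and Benjamini-Hochberg adjustment over all 11851 genes, 19 of the 173 (11.0%) were higher with SLIT2, against 6.76% of all genes tested, and 13 (7.51%) were lower, against 6.58%. Together 32 (18.5%) passed at an adjusted p under 0.05, against 13.3% of all genes. The median difference was 0.008 for the solute carriers and 0.002 for all genes, and the median absolute difference was 0.155 against 0.112. Differences ran from -0.76 (Slc5a6, which did not pass) to 0.99 (Slc39a8). Most calls were small: 25 of the 32 were under 1.5-fold either way.

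In each of the 32 the vehicle and SLIT2 libraries did not overlap, and the call also held with the replicate block. Without overlap, the sign is necessarily the same in both replicate sets. Groups without overlap were found for 26 members above (10.6% of all genes) and 22 below vehicle (9.99% of all genes), 48 in all against 20.5% of all genes. With the block, 38 members were higher (16.6% of all genes) and 41 lower (16.4% of all genes), together 79 or 45.7% against 33.0% of all genes. Another 47 were thus called only with the block, 19 higher and 28 lower, and 94 with neither fit. Among these 19 was Slc16a12, whose vehicle mean lay below the limit used for the choice (limma adjusted p = 0.0401 with the block). Leaving out 1 library gave between 11 and 18 higher and between 7 and 13 lower calls. Without vehicle replicate 1 there were 12 and 8, without vehicle replicate 3 there were 11 higher, without SLIT2 replicate 2 there were 12 and 7, and without SLIT2 replicate 1 or 3 there were 8 lower. The libraries of a set were also averaged first, which leaves 2 samples a group, and fitted with the set as a block. This gave 9 higher and 5 lower: 10 of the 32 kept the call and 22 lost it. Of the 47 called only with the block, 4 passed on these averages (Slc43a2, Slc2a6, Slc26a2 and Slc12a7) and 43 did not. Since the set was a block there too, this is no separate check of the block. For the fits without 1 library and on averages, no share of all genes is given. Their counts therefore describe the members alone. Whichever library was left out, the call held for 18 genes, among them Slc39a8, Slc39a12, Slc39a1, Slc39a6, Slc48a1, Slc6a6, Slc29a1, Slc16a10, Slc18a1, Slc22a18, Slc12a9, Slc20a1, Slc41a2, Slc35f6, Slc35b1, Slc25a1 and Slc25a23. On the set averages some of them passed, such as Slc29a1 (limma adjusted p = 0.0332) and Slc12a9 (0.036). Others did not, such as Slc39a6 (0.0933) and Slc35b1 (0.096).

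**Figure D1:**
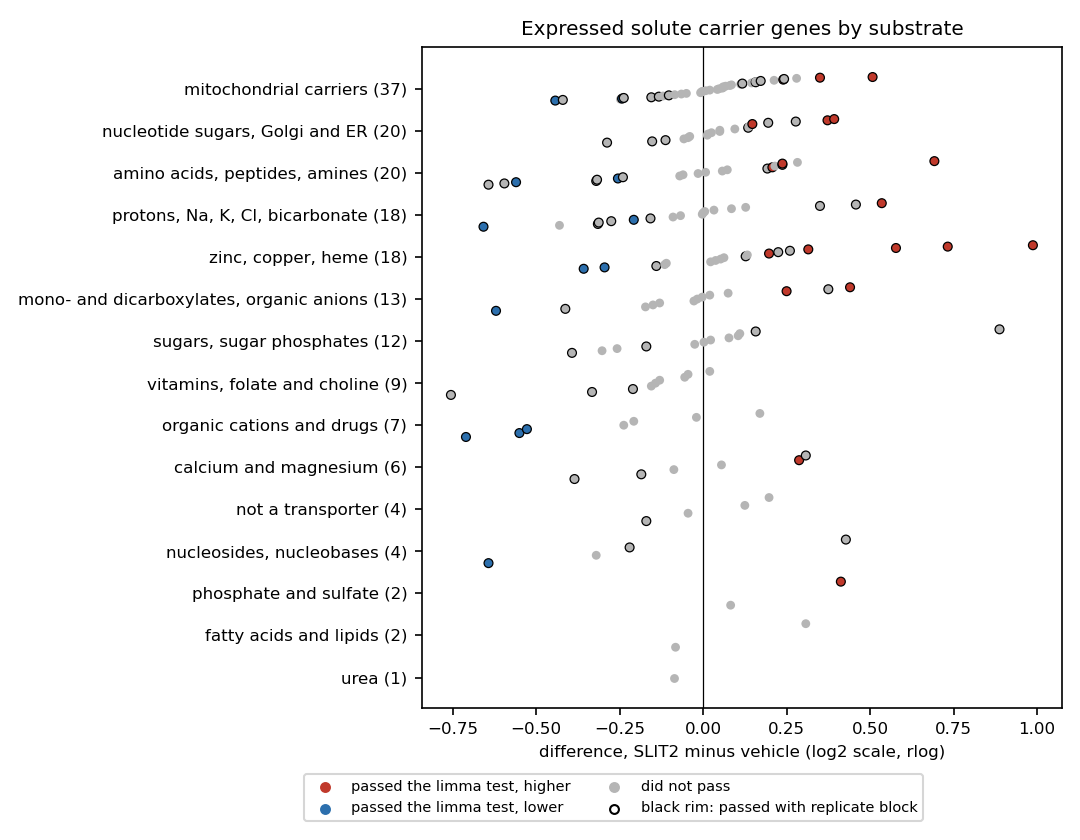
Difference between SLIT2 and vehicle (x axis, log2 scale of the rlog values) for the 173 solute carrier genes, 1 point per gene, in rows by substrate class with the number of genes in parentheses; within a row, genes are stacked by value and the height has no unit. Red and blue points passed limma's test, grey points did not, and a black rim marks genes that passed with the replicate block; zinc, copper and heme transporters reach furthest right at 0.99, and the 3 organic cation transporters that passed all lie left of 0.

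Of the 18 transporters of zinc, copper and heme, 7 passed (38.9% against 13.3% of all genes tested): 5 rose and 2 fell, while the block gave 8 higher and 3 lower (61.1% against 33.0%). Of the SLC39 or ZIP family, which moves zinc into the cytosol, 4 of 10 were higher and 1 lower, while none of the 5 SLC30 family members, which move zinc out of it, passed. With the block, 2 of those 5 were higher, Slc30a5 (0.225, adjusted p = 0.00508) and Slc30a7 (0.26, adjusted p = 0.00122), which load zinc into the secretory pathway. With the libraries of a set averaged, neither passed (adjusted p = 0.0808 and 0.0645). These family counts do not include Slc30a1, Slc39a14 and Slc39a10, which were left out by name. In limma's fit Slc30a1 fell by 0.65 (adjusted p = 6.59e-05) and Slc39a14 rose by 0.81 (0.0103). Slc39a10 differed by -0.12 (0.281, block 0.0279).

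Slc39a8 (chr3:135825279-135888572, plus strand) encodes ZIP8, an importer of zinc and manganese at the plasma membrane and in lysosomes. Its vehicle libraries read 9.16, 9.23, 9.17 and 9.02, and its SLIT2 libraries 10.19, 10.16, 10.10 and 10.08. The lowest SLIT2 library lay 0.85 above the highest vehicle library. The mean rose from 9.14 ± 0.0889 (SD, n = 4) to 10.13 ± 0.0512, a difference of 0.99 (SE 0.0584, 1.98-fold, limma adjusted p = 6.03e-05). It was 0.98 within the set of replicates 1 and 2, and 0.995 within the other.

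Slc39a12 (chr2:14388316-14494977, plus strand), is another zinc importer. Its level per length, the rlog minus log2 of its exonic kilobases, was 4.69 against 6.70 for Slc39a8. It read 6.10, 5.92, 5.89 and 5.74 in vehicle and 6.68, 6.73, 6.55 and 6.62 with SLIT2, again without overlap. The difference was 0.73 (SE 0.0912, 1.66-fold, limma adjusted p = 0.00142). Slc39a1 (chr3:90248172-90253612, plus strand), a zinc importer of the cell surface, had the highest level per length of the class, 11.82. It read 12.93, 12.93, 12.85 and 12.90 in vehicle and 13.31, 13.30, 13.11 and 13.15 with SLIT2, a rise of 0.315 (SE 0.0561, 1.24-fold, adjusted p = 0.00801, limma).

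Slc39a7 (chr17:34028269-34031682, minus strand) encodes ZIP7, which releases zinc from the endoplasmic reticulum. It rose by 0.20 (SE 0.0496, 1.15-fold, limma adjusted p = 0.0354). This value is uncertain, since 80.65% of its exonic bases are shared on the same strand with the gene model Gm20427, and the call was lost without any 1 of 6 libraries (vehicle 1, 2 or 3, SLIT2 1, 2 or 3), with adjusted p up to 0.0923.

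Slc39a6 (chr18:24579881-24603817, minus strand), the zinc transporter ZIP6, went the other way. It read 11.53, 11.54, 11.47 and 11.52 in vehicle and 11.11, 11.20, 11.30 and 11.27 with SLIT2. Vehicle libraries lay within 0.07 of each other and all above every SLIT2 library, and the difference was -0.295 (SE 0.0499, 0.815-fold, limma adjusted p = 0.00631).

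Slc31a1 (chr4:62360727-62391769, plus strand) encodes CTR1, the main copper importer. It read 12.05, 12.07, 11.71 and 11.78 in vehicle and 12.73, 12.70, 12.28 and 12.21 with SLIT2. Both groups were higher in replicates 1 and 2 than in 3 and 4, and within each set SLIT2 lay above vehicle, by 0.655 and 0.50. The difference was 0.58 (SE 0.144, 1.49-fold, limma adjusted p = 0.0344, and 0.000291 with the block). Without 1 of vehicle 1, 3 or 4 or SLIT2 1 or 2 it missed the threshold, with adjusted p up to 0.0906. Slc31a2, its relative CTR2 of the late endosome, differed by 0.06 (95% interval -0.07 to 0.19, limma adjusted p = 0.566).

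Slc48a1 (chr15:97778520-97792692, plus strand) encodes HRG1, which brings heme from the phagolysosome into the cytosol after red cells are digested. It read 13.55, 13.54, 13.28 and 13.40 in vehicle and 13.08, 13.04, 13.12 and 13.10 with SLIT2. The SLIT2 libraries were nearly level while the vehicle libraries differed by set. It fell by 0.36 (SE 0.0648, 0.781-fold, limma adjusted p = 0.00865), with a fall by 0.485 in the set of replicates 1 and 2 and by 0.23 in the other set.

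**Figure D2:**
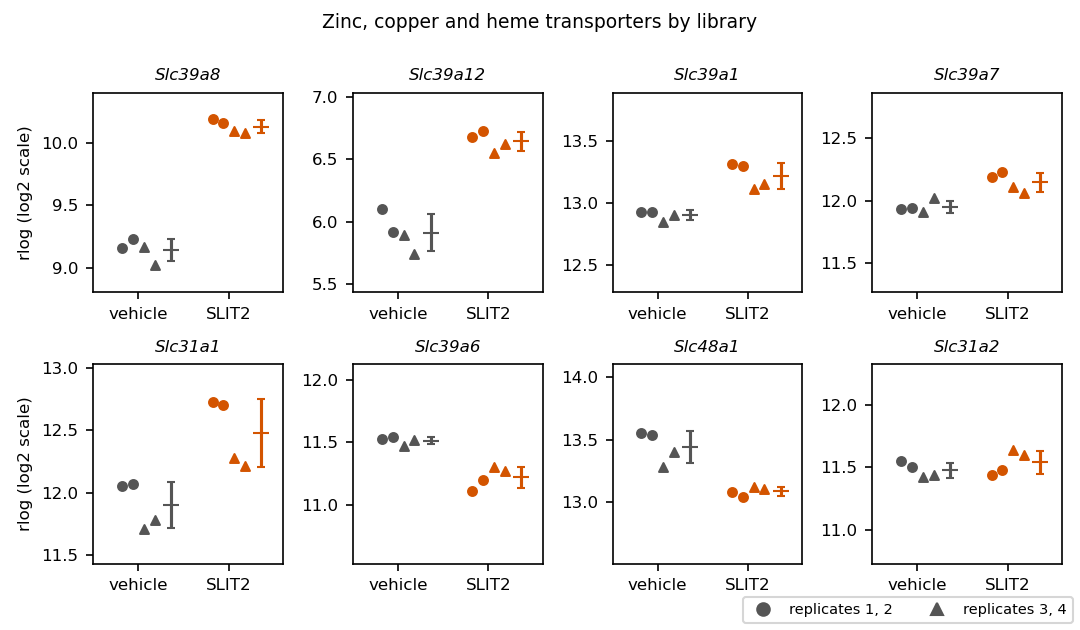
rlog value (y axis, log2 scale) of 8 transporters of zinc, copper and heme in each of the 4 vehicle and 4 SLIT2 libraries; circles are replicates 1 and 2, triangles replicates 3 and 4, and the bar is mean ± SD. All y axes span the same width but start at different levels; Slc39a8 shows the widest gap, Slc39a6 and Slc48a1 lie lower with SLIT2, and Slc31a2 overlaps.

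Among the 20 transporters of amino acids, peptides and amines, 3 were higher and 2 lower (25.0% called against 13.3% of all genes), and with the block 5 were higher and 7 lower (60.0% against 33.0%). Slc7a7 (chr14:54369442-54417780, minus strand) encodes y+LAT1, the light chain that exports cationic amino acids in exchange for neutral ones. It read 8.38, 8.33, 8.09 and 8.33 in vehicle and 9.14, 9.38, 8.58 and 8.80 with SLIT2. The rise was 0.69 (SE 0.168, 1.62-fold, limma adjusted p = 0.0307), with 0.905 in the set of replicates 1 and 2 against 0.48 in the other. It missed the threshold without any 1 of the 4 vehicle libraries or SLIT2 1 or 2, with adjusted p up to 0.0807.

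Slc38a9 (chr13:112660751-112738749, plus strand), the lysosomal arginine sensor upstream of mTORC1, rose by 0.24 (SE 0.0549, 1.18-fold, limma adjusted p = 0.0256). Its vehicle libraries lay at 10.13, 10.18, 10.24 and 10.29, and SLIT2 libraries at 10.38, 10.40, 10.53 and 10.48. Slc38a6, a member of the same family of neutral amino acid transporters, rose by 0.21 (SE 0.0457, 1.15-fold, limma adjusted p = 0.021). Both calls depended on single libraries: Slc38a9 was lost without 1 of vehicle 1, 2 or 3 or SLIT2 3 or 4 (adjusted p up to 0.0713), and Slc38a6 without 1 of vehicle 1 or 3 or SLIT2 1 or 2 (adjusted p up to 0.0622).

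The sodium- and chloride-coupled transporters of creatine and taurine both fell. Slc6a8 (chrX:73673150-73682502, plus strand), the creatine transporter, read 12.41, 12.39, 12.72 and 12.82 in vehicle and 11.84, 11.79, 12.19 and 12.28 with SLIT2. Here replicates 3 and 4 were the higher set in both groups. The difference was -0.56 (SE 0.144, 0.678-fold, limma adjusted p = 0.0378, and 5.65e-05 with the block), and it missed the threshold without 1 of vehicle 1, 3 or 4 or SLIT2 1, 2 or 3 (adjusted p up to 0.0969). Slc6a6 (chr6:91684053-91759066, plus strand), the taurine transporter, had the highest level per length of all 173 genes, 12.52. It read 15.71, 15.74, 15.77 and 15.70 in vehicle and 15.54, 15.50, 15.41 and 15.45 with SLIT2, a fall by 0.255 (SE 0.0477, 0.838-fold, adjusted p = 0.01, limma).

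Several amino acid transporters passed only with the block. Slc43a2, the essential amino acid uniporter LAT4, read 14.49, 14.50, 13.85 and 14.01 in vehicle and 13.90, 13.81, 13.31 and 13.26 with SLIT2. Its sets overlap across groups, since vehicle replicate 3 lies below SLIT2 replicate 1, but within sets the difference was -0.64 (replicates 1 and 2) and -0.645. Over all 8 libraries it was -0.64 (limma adjusted p = 0.0784, and 0.000163 with the block). Slc38a1, a glutamine importer, differed by -0.32 (adjusted p = 0.0767, block 0.00145), and Slc7a8, a neutral amino acid exchanger, by 0.24 (adjusted p = 0.283, block 0.00345), both in limma's fits. On set averages Slc43a2 passed (adjusted p = 0.0296), and Slc38a1 (0.0611) and Slc7a8 (0.0925) did not. For Slc7a2, the cationic amino acid importer of activated macrophages, the difference was -0.32 (limma adjusted p = 0.437, block 0.0456), and for Slc36a1, a lysosomal exporter of small amino acids, 0.19 (0.381, block 0.0268). Slc6a12, a betaine transporter, differed by -0.595 (limma adjusted p = 0.559, block 0.0157). The lysosomal histidine and peptide transporters Slc15a3 and Slc15a4, known from Toll-like receptor signalling, differed by -0.24 (limma adjusted p = 0.0756, block 0.0185) and -0.06 (0.649, not called with the block). Slc15a3 shares 28.06% of its exonic bases with the antisense gene Tmem132a.

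Of the 4 nucleoside and nucleobase transporters, Slc29a1 passed (25.0% against 13.3% of all genes). With the block, 1 was higher and 2 lower (75.0% against 33.0%). Slc29a1 (chr17:45585200-45599606, minus strand) encodes ENT1, the equilibrative nucleoside transporter that also takes up adenosine. Vehicle libraries read 10.39, 10.36, 10.22 and 10.35, and SLIT2 libraries 9.81, 9.71, 9.60 and 9.63. Every SLIT2 library lay at least 0.41 below every vehicle library, and the difference was -0.64 (SE 0.0631, 0.641-fold, limma adjusted p = 0.000481). It was -0.615 and -0.67 in the 2 sets. Slc29a3, the lysosomal relative ENT3, differed by -0.22 (limma adjusted p = 0.371, block 0.00521), and Slc28a2, a sodium-coupled concentrative purine nucleoside importer, by 0.43 (0.129, block 0.00129). The nucleobase transporter Slc43a3 differed by -0.32 (limma adjusted p = 0.168).

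In the class of monocarboxylates, dicarboxylates and organic anions, 3 of 13 passed (23.1% against 13.3% of all genes). All were in the SLC16 family, where 2 of 7 were higher and 1 lower. With the block, 3 of the 13 were higher and 2 lower (38.5% against 33.0%). Slc16a10 (chr10:40033532-40142258, minus strand), which carries aromatic amino acids and thyroid hormones, read 12.01, 12.02, 11.72 and 11.74 in vehicle and 11.31, 11.27, 11.17 and 11.26 with SLIT2. The gap between the groups was wider than the gap between the vehicle sets, and the difference was -0.62 (SE 0.0811, 0.651-fold, limma adjusted p = 0.00181). Slc16a1 (chr3:104638668-104658462, plus strand), the lactate and pyruvate transporter MCT1 whose promoter stretch is printed above, read 9.11, 9.18, 9.19 and 9.27 in vehicle and 9.36, 9.44, 9.44 and 9.51 with SLIT2. It rose by 0.25 (SE 0.0559, 1.19-fold, limma adjusted p = 0.0224), a call lost without 1 of vehicle 1, 2 or 3 or SLIT2 2, 3 or 4 (adjusted p up to 0.0618).

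Slc16a6 (chr11:109450855-109473598, minus strand), MCT7, read 10.56, 10.51, 10.28 and 10.35 in vehicle and 11.01, 11, 10.8 and 10.65 with SLIT2. The lowest SLIT2 library was 0.09 above the highest vehicle library. The rise was 0.44 (SE 0.0988, 1.36-fold, limma adjusted p = 0.0228), it was lost without 1 of vehicle 3 or 4 or SLIT2 1 or 2 (adjusted p up to 0.0658), and 21.54% of the exonic bases lie opposite Amz2. Slc16a7, the high-affinity pyruvate transporter MCT2, differed by -0.02 (limma adjusted p = 0.951), and Slc17a5, which exports sialic acid from lysosomes, by 0.02 (0.862).

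All 3 organic cation and drug transporters that passed were lower, out of 7 (42.9% called against 13.3% of all genes). With the block, 3 were again lower and none higher (42.9% against 33.0%). Slc22a4 (chr11:53983123-54028090, minus strand), the ergothioneine transporter OCTN1, read 7.78, 7.42, 7.27 and 7.54 in vehicle and 7.14, 6.81, 6.79 and 6.43 with SLIT2. It fell by 0.71 (SE 0.163, 0.611-fold, limma adjusted p = 0.0251), which missed the threshold without 1 of vehicle 1, 2 or 4 or SLIT2 2 or 3 (adjusted p up to 0.0637). Slc18a1 (chr8:69037711-69089235, minus strand), a vesicular monoamine transporter, read 6.38, 6.46, 6.43 and 6.53 in vehicle and 5.79, 5.76, 5.94 and 6.11 with SLIT2, a difference of -0.55 (SE 0.0932, 0.683-fold, limma adjusted p = 0.00635).

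Slc22a18 (chr7:143473736-143499334, plus strand), an organic cation transporter-like gene, had a mean of 5.32 in vehicle and 4.79 with SLIT2. Its libraries read 5.45, 5.15, 5.27 and 5.4 against 4.82, 4.74, 4.85 and 4.75, and the difference was -0.53 (SE 0.0865, 0.694-fold, limma adjusted p = 0.0055). The carnitine importer Slc22a5 differed by -0.02 (limma adjusted p = 0.869).

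Among the 18 transporters of protons, sodium, potassium, chloride and bicarbonate, 1 was higher and 2 lower (16.7%, near the 13.3% of all genes), and with the block 3 were higher and 6 lower (50% against 33.0%). Slc12a9 (chr5:137314558-137333597, minus strand), a member of the cation-chloride cotransporter family, read 10.22, 10.17, 10.02 and 9.94 in vehicle and 10.77, 10.76, 10.45 and 10.51 with SLIT2. Its rise of 0.535 (SE 0.0967, 1.45-fold, limma adjusted p = 0.00854) was close in both sets, 0.57 and 0.50. Slc12a2, the sodium-potassium-chloride cotransporter NKCC1, read 9.01, 8.98, 9.01 and 8.97 in vehicle and 8.80, 8.81, 8.80 and 8.73 with SLIT2. The difference was -0.21 (SE 0.0471, 0.866-fold, limma adjusted p = 0.0237), and the call was lost without any 1 library other than vehicle 4 (adjusted p up to 0.0696).

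Slc9b2, the sodium-proton antiporter NHA2, read 7.27, 7.31, 6.87 and 6.60 in vehicle and 6.42, 6.49, 6.02 and 6.49 with SLIT2. It fell by 0.66 (SE 0.183, 0.634-fold, limma adjusted p = 0.0498), next to the threshold, and missed the threshold without any 1 library other than vehicle 4 (adjusted p up to 0.123). Slc26a2, a sulfate transporter counted in this class by its family, read 11.61, 11.55, 11.18 and 11.19 in vehicle and 12.06, 12.08, 11.63 and 11.59 with SLIT2. Its difference of 0.46 (limma adjusted p = 0.0936, block 0.000188) stood beside 0.35 for Slc12a7, a potassium-chloride exporter (0.183, block 0.000241). Slc26a11 differed by -0.31 (limma adjusted p = 0.0566, block 0.00107).

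Slc20a1 (chr2:129198764-129211616, plus strand), the sodium-phosphate cotransporter PiT1 with the 2 promoter matches above, read 10.93, 10.93, 11.01 and 10.90 in vehicle and 11.44, 11.40, 11.33 and 11.25 with SLIT2. It rose by 0.41 (SE 0.0522, 1.33-fold, limma adjusted p = 0.00154), while its relative Slc20a2 differed by 0.08 (limma adjusted p = 0.629). Of the 6 calcium and magnesium transporters, 1 passed (16.7%, near the 13.3% of all genes). With the block, 2 were higher and 2 lower (66.7% against 33.0%). The gene that passed without it was the magnesium transporter Slc41a2. It read 11.16, 11.24, 11.03 and 11.07 in vehicle and 11.45, 11.46, 11.36 and 11.38 with SLIT2, a rise of 0.29 (SE 0.0556, 1.22-fold, limma adjusted p = 0.0117). The mitochondrial sodium-calcium exchanger Slc8b1 differed by 0.055 (limma adjusted p = 0.657).

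**Figure D3:**
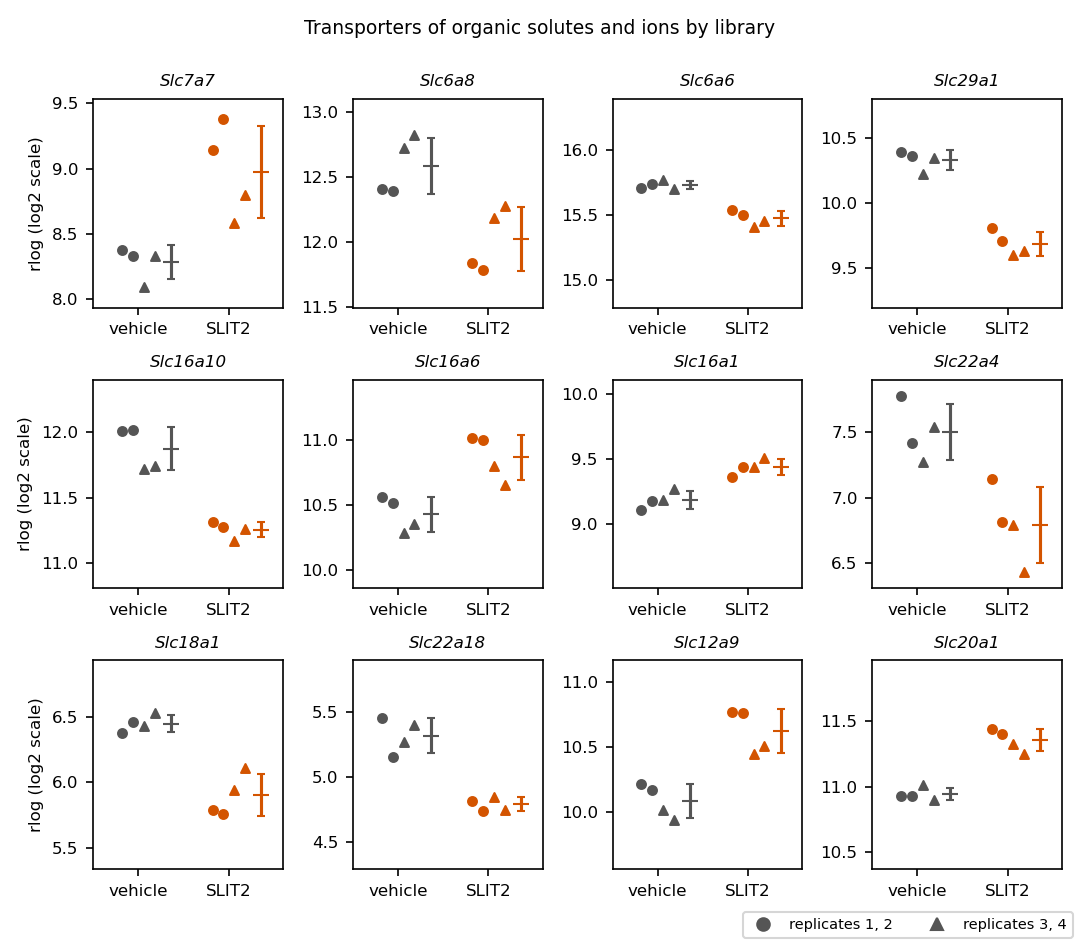
rlog value (y axis, log2 scale) of 12 transporters of amino acids, nucleosides, monocarboxylates, organic cations, chloride and phosphate in each of the 4 vehicle and 4 SLIT2 libraries; circles are replicates 1 and 2, triangles replicates 3 and 4, and the bar is mean ± SD. All y axes span the same width but start at different levels; no panel shows an overlap of the groups, and Slc6a8, Slc7a7 and Slc12a9 show the offset between the replicate sets.

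The nucleotide sugar and related carriers of the Golgi and endoplasmic reticulum, which supply glycosylation, had small differences: 3 of 20 were higher and none lower (15.0% called, near the 13.3% of all genes), and with the block 6 were higher and 3 lower (45.0% against 33.0%). Slc35f6 (chr5:30647933-30659729, plus strand) read 11.98, 12, 11.92 and 11.96 in vehicle and 12.32, 12.32, 12.37 and 12.42 with SLIT2. Its groups lay 0.32 apart, and the rise was 0.39 (SE 0.0399, the smallest of the 32 calls, 1.31-fold, limma adjusted p = 0.000569). Slc35b1 (chr11:95384692-95391776, plus strand), the ATP/ADP exchanger of the endoplasmic reticulum, read 10.17, 10.13, 10.17 and 10.19 in vehicle and 10.37, 10.44, 10.68 and 10.66 with SLIT2. It rose by 0.37 (SE 0.0759, 1.29-fold, limma adjusted p = 0.0146), 0.255 within replicates 1 and 2 against 0.49 within replicates 3 and 4. Slc35f5 rose by 0.15 (SE 0.0406, 1.11-fold, limma adjusted p = 0.0483), the smallest called difference, and was not called once any 1 of the 8 libraries was left out (adjusted p up to 0.121).

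Of the 37 mitochondrial carriers of the SLC25 family, 3 were higher and 2 lower (13.5%, near the 13.3% of all genes), and with the block 7 were higher and 7 lower (37.8% against 33.0%). Slc25a1 (chr16:17925223-17928219, minus strand), which exports citrate for fatty acid synthesis and has a promoter match above, read 10.77, 10.82, 10.79 and 10.83 in vehicle and 11.07, 11.06, 11.08 and 10.96 with SLIT2. The rise was 0.24 (SE 0.0423, 1.18-fold, limma adjusted p = 0.00756).

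The calcium-regulated ATP-magnesium/phosphate carriers, which set the adenine nucleotide pool of the matrix, split. Slc25a23 (chr17:57043711-57059863, minus strand) read 8.53, 8.52, 8.77 and 8.50 in vehicle and 8.94, 8.89, 8.94 and 8.95 with SLIT2, a rise of 0.35 (SE 0.0711, 1.27-fold, limma adjusted p = 0.0144). Slc25a24 (chr3:109123149-109168457, plus strand) read 12, 12.04, 11.86 and 11.78 in vehicle and 11.65, 11.71, 11.64 and 11.71 with SLIT2, a fall by 0.24 (SE 0.0625, 0.845-fold, limma adjusted p = 0.0384) that was lost without any 1 library other than vehicle 4 (adjusted p up to 0.0983). Their relative Slc25a25 differed by -0.42 (limma adjusted p = 0.0657, block 0.0107).

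Slc25a13 (chr6:6041218-6217173, minus strand) encodes citrin, the aspartate-glutamate carrier of the malate-aspartate shuttle. It read 9.51, 9.57, 9.70 and 9.73 in vehicle and 8.97, 9.06, 9.28 and 9.43 with SLIT2, so that SLIT2 replicate 4 came within 0.08 of vehicle replicate 1. It fell by 0.44 (SE 0.107, 0.736-fold, limma adjusted p = 0.0313) and missed the threshold without 1 of vehicle 2, 3 or 4 or SLIT2 1, 2 or 3 (adjusted p up to 0.0859). The dicarboxylate carrier Slc25a10 differed by -0.155 (limma adjusted p = 0.0813, block 0.0349), the oxoglutarate carrier Slc25a11 by 0.06 (0.405) and the adenine nucleotide translocator Slc25a5 by 0.145 (0.197). Slc25a30, of the uncoupling-protein group, differed by 0.17 (limma adjusted p = 0.0743, block 0.0489).

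No sugar, vitamin, fatty acid or urea transporter passed limma's test without the block (of 12, 9, 2 and 1 genes). The widest difference among them that held with the block was that of Slc2a6, the lysosomal hexose transporter GLUT6. It read 9.18, 9.29, 8.60 and 8.52 in vehicle and 10.29, 10.29, 9.33 and 9.23 with SLIT2. SLIT2 replicates 3 and 4 lay at the level of vehicle replicates 1 and 2, and within sets the difference was 1.055 (replicates 1 and 2) and 0.72. Over all libraries it was 0.89 (SE 0.304, 1.85-fold, limma adjusted p = 0.10, and 0.000508 with the block). Slc2a3, the glucose transporter GLUT3, differed by -0.26 (limma adjusted p = 0.249), and the urate transporter Slc2a9 by -0.17 (0.244, block 0.0482).

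Of the 9 vitamin, folate and choline transporters, 8 had a difference below 0, none passed, and 3 passed as lower with the block (33.3%, near the 33.0% of all genes). Slc5a6, the sodium-coupled importer of biotin and pantothenate, had the most negative difference of all 173 genes at -0.755 (limma adjusted p = 0.299, block 0.017). Its libraries were widely spread, 6.43, 6.05, 5.03 and 6.87 in vehicle and 5.10, 5.48, 4.75 and 6.03 with SLIT2. Slc23a2, the vitamin C importer, differed by -0.33 (limma adjusted p = 0.181, block 0.00544), and the lysosomal Slc46a3 by -0.21 (0.0708, block 0.0171). The proton-coupled folate transporter Slc46a1 differed by -0.14 (limma adjusted p = 0.139) and the thiamine importer Slc19a2 by -0.045 (0.849). The fatty acid transport proteins Slc27a4 and Slc27a1 differed by -0.08 (limma adjusted p = 0.408) and 0.31 (0.751), and the urea transporter Slc14a1 by -0.09 (0.794). Of the 4 genes that encode no transporter, Slc9a3r1 differed by -0.17 (limma adjusted p = 0.0565, block 0.0111).

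The size of the SLIT2 difference itself was compared between replicates 1 and 2 and replicates 3 and 4 with the interaction term of limma's fit. It passed for 6 of the 173 genes, a share below the 4.40% of all genes tested. Slc37a2, a glucose-6-phosphate antiporter with a level per length of 11.07, had a difference of -0.545 in replicates 1 and 2 against -0.06 in 3 and 4 (adjusted p = 0.0105). Its libraries read 14.06, 14, 13.85 and 13.91 in vehicle and 13.49, 13.48, 13.75 and 13.89 with SLIT2, so that the first set is lower with SLIT2 and the second overlaps. Slc25a37, the mitochondrial iron importer mitoferrin-1, differed by -0.195 and 0.21 (adjusted p = 0.0171 for the difference between sets). It read 10.43, 10.43, 10.24 and 10.12 in vehicle and 10.21, 10.26, 10.39 and 10.39 with SLIT2, and its difference over all libraries was 0.0075.

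Slc31a2 also changed sign, from -0.065 to 0.19 (adjusted p = 0.0253, limma). Slc25a33, a pyrimidine nucleotide carrier, differed by 0.52 and 0.04 (adjusted p = 0.0446, limma), and Slc9a9, an endosomal sodium-proton exchanger, by 0.02 and 0.235 (0.0224). Slc48a1 was the 1 gene called in both tests (adjusted p = 0.0454 for the difference between sets), lower in both sets. The count of 6 ranged from 0 to 6 when 1 library was left out: none without vehicle replicate 1, 1 without vehicle 2 or SLIT2 1, 2 or 4, 3 without vehicle 4 or SLIT2 3, and 6 without vehicle 3.

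**Figure D4:**
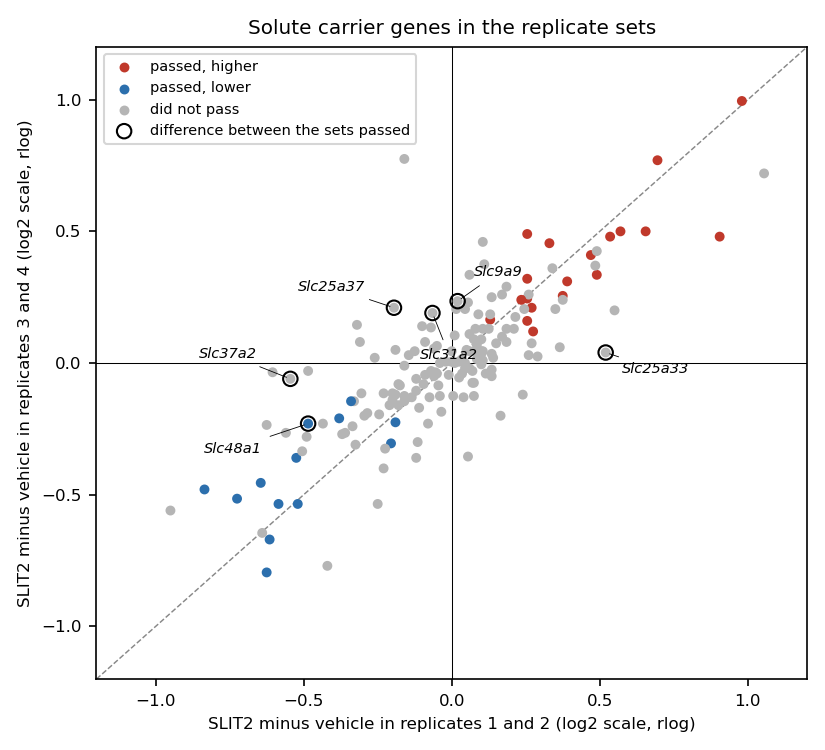
Difference between SLIT2 and vehicle in replicates 1 and 2 (x axis) and in replicates 3 and 4 (y axis), both on the log2 scale of the rlog values, 1 point per solute carrier gene, with a dashed line of equal differences. Red and blue points passed limma's test over all libraries and lie in the quadrants of equal sign; circled genes passed the test of the difference between the sets, such as Slc25a37 at -0.195 and 0.21.

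Transporters that carry other symbols but belong to the superfamily were listed too: of 44, 37 were tested, 9 being higher and 4 lower without the block, 11 and 8 with it. That is 35.1% against 13.3% of all genes, and 51.4% against 33.0% with the block. Sfxn5, a mitochondrial sideroflexin, rose by 1.43 (SE 0.0833, limma adjusted p = 6.03e-05), from 9.33 ± 0.171 (SD, n = 4) to 10.76 ± 0.0386, and the magnesium transporter Nipa2 rose by 0.715 (SE 0.0434, adjusted p = 6.13e-05). These rises do not stand for their families, since in each of them a relative passed as lower. The lysosomal exporters of cystine and of cationic amino acids, Ctns and Pqlc2, rose by 0.21 (limma adjusted p = 0.0325) and 0.42 (0.00104). Mfsd7b, the heme exporter also called Flvcr1, fell by 0.47 (limma adjusted p = 0.0276). Of 19 genes for gradient pumps, chaperones and kinases of solute carriers, 11 were tested, 1 was higher (Fxyd5, 0.18, limma adjusted p = 0.0333) and 1 lower (18.2%, near the 13.3% of all genes), and with the block 4 were higher and 3 lower (63.6% against 33.0%). Bsg, the chaperone of the SLC16 lactate transporters, differed by 0.15 (limma adjusted p = 0.0793, block 0.0115). Of the 15 solute carriers left out by name, 3 were higher (Slc38a2, Slc39a14 and Slc1a4) and 2 lower (Slc30a1 and Slc40a1), 33.3% against 13.3% of all genes. With the block 5 were higher, with Slc2a1 and Slc11a2 added, and 5 lower, with Slc7a11, Slc11a1 and Slc39a10 added (66.7% against 33.0%).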

How the data were processed

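Polyadenylated RNA in 8 macrophage libraries (4 vehicle, 4 SLIT2) was sequenced as 101 bp read pairs with a stranded kit and 300 ng of total RNA per library, per the labels' protocols. The submitters' processing notes name FastQC 0.11.9, STAR, SAMtools 1.7, Picard 2.23.8, Salmon, DESeq2 and the builds mm10 and GRCm38. How the counting used strand is not stated by any source used. The authors deposited regularised log2 values per gene, rounded to 2 decimals, and no counts were used, so the depth is unknown and no interval for counting error is given. From these values, limma 3.58.1 in R 4.3.3 fitted treatment alone (trended prior, two-sided, Benjamini-Hochberg adjustment, threshold 0.05) on the 11851 genes with a mean of at least 4, and the interaction of treatment with replicate set. The fits were also run on simulated data, and no result given here rests on that run.

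Replicate numbers come from the labels, which do not say what they mark. Deviations of same-numbered libraries correlated (0.637, 0.671, 0.753 and 0.587 for numbers 1 to 4), and the number was fitted as a block for that reason. Same-numbered libraries within a set are not shown to be pairs. The shared element was the set, since the difference of replicates 1 and 2 in vehicle correlated at -0.0415 with that in SLIT2, and the difference of 3 and 4 at 0.0884. The members, substrate classes and lists were chosen with earlier results of these data known, and the choice of members used the expression level. The class of Slc14a1 and Slc4a1ap was set after the table was seen.

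Genes were named by rule: the 12 widest calls in each direction, up to 3 calls per class or mitochondrial subgroup and direction (otherwise the smallest p), the highest level per length in a class, a list of well-studied carriers, the genes next to the expression limit, and genes that change sign between sets and pass that test. Genes called only with the block, Slc39a7, Slc20a2, Slc43a3, Slc25a33 and the genes of other lists outside this rule were named after their values were seen. Some genes that this rule or the lists would name are not reported here. Positions, lengths and overlaps are from GENCODE on GRCm38, which matched all 173 genes, and 26 members share over 5% of their exonic bases with an antisense gene and 4 with a gene on the same strand. Promoters are from RefSeq on GRCm38.p6.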

Additional observations from a re-analysis of the deposited data

Results flagged for a closer look

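In 8 of 124 groups of 4 libraries checked among the named genes, 1 library lay apart from the other 3 by Dixon's criterion, which chance meets in about 1 in 20 groups. With SLIT2 these were the lowest libraries of Slc12a2 (8.73), Slc25a1 (10.96), Slc25a11 (11.86), Slc25a23 (8.89) and Slc9b2 (6.02). In vehicle they were the highest libraries of Slc25a10 (10.32), Slc25a23 (8.77) and Slc35f5 (11.24). Of these genes, Slc25a1 and Slc25a23 passed the test whichever library was left out, Slc12a2, Slc9b2 and Slc35f5 lost the call without some, and Slc25a10 and Slc25a11 did not pass with all libraries. The SLIT2 libraries of Slc25a11 read 11.87, 11.87, 11.86 and 11.87, so its flag rests on the last decimal of the rounded values.

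The SLIT2 difference in replicates 3 and 4 minus that in replicates 1 and 2 passed limma's interaction test for 6 solute carriers. As a share of the members, this is below the 4.40% of all genes tested. The value was 0.485 for Slc37a2, 0.405 for Slc25a37, 0.255 for Slc31a2, 0.255 for Slc48a1, 0.215 for Slc9a9 and -0.48 for Slc25a33.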

How the results depend on the processing

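The 19 higher and 13 lower solute carriers became 38 and 41 with the replicate block by number. With a block of 2 replicate sets they became 44 and 42. They were 37 and 33 in replicates 1 and 2 alone, and 33 and 23 in replicates 3 and 4 alone. With the libraries of a set averaged and the set as a block, they were 9 and 5. Leaving out 1 library gave 11 to 18 higher and 7 to 13 lower. Changes of filter, prior, scaling or library weights gave 17 to 19 higher and 9 to 18 lower. Shares of all genes are given above only for the fit of treatment alone and the block by number. The other counts therefore describe the members alone. The block took no call from the named genes and added 14. The 6 genes whose difference differed between sets became 2 among all non-constant genes, 1 without a variance trend and 0 to 6 without 1 library. No called gene among the 62 named changed sign under any alternative, and 10 uncalled ones did. Depth could not be weighed, since only rlog values were used, and these understate differences of weakly expressed genes.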
